A study of Homo sapiens with 20 samples.

Results

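The genes described here encode the structural parts of the desmosome: the plakin DSP, the desmosomal cadherins DSG2, DSG3, DSC2 and DSC3, the armadillo proteins JUP, PKP1, PKP2 and PKP3, and the tetraspan membrane protein PERP. They were taken by gene symbol from the table of counts, each gene identifier once. All 10 symbols were found among the 60671 identifiers. All 10 also passed the filter on low counts, as did 22938 genes in all, with between 1950 counts (DSC2) and 58178 counts (DSP) in a library.

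The desmosome is a button-like junction that ties the keratin filaments of neighbouring epithelial cells to each other. Outside the cell, desmogleins and desmocollins, both calcium-binding cadherins, hold the cells together. Inside, plakoglobin (JUP) and the plakophilins bind the cadherin tails, and desmoplakin (DSP) links this plaque to keratin. In stratified epithelia such as that of the cornea, desmosomes carry the mechanical load of the cell sheet, and the mix of cadherins and plakophilins changes from the basal to the upper layers.

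RNA came from hTCEpi, a single telomerase-immortalized line of the human corneal epithelium, grown in keratinocyte growth medium with supplements and calcium chloride added to 0.15 mM. SPARC, a secreted glycoprotein that binds collagen, was added as recombinant human protein for 24 h. The 4 groups had 5 libraries each: control (no SPARC, 0 µg/ml) and 3 doses of 0.05, 0.5 or 5 µg/ml, each named here by its dose (SPARC 0.05, SPARC 0.5, SPARC 5). All groups share the line and the medium. Nothing in the labels says whether the 5 libraries of a group came from separate cultures, so p-values measure the spread between these libraries, which may be technical.

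Library totals were between 31955358 and 50112286 counts. SPARC 5 replicates 2 and 5 stood apart on the second principal component of log2 CPM (counts-per-million; 48.2 and −40.1, against −26.5 to 12.5 in the other 18 libraries), and the changes of the members at SPARC 5 are given with and without this pair. The GC content of genes also went with the groups. Relative to the mean of all libraries, log2 levels correlated with the GC content of genes by −0.012 to 0.27 in the controls. The correlations were −0.076 to 0.013 at SPARC 0.05, −0.126 to −0.018 at SPARC 0.5 and −0.127 to 0.099 at SPARC 5. They run across genes, which are not independent replicates. The summed level of 9 markers of corneal epithelium was between 11594 and 12496 CPM in every library. Most of it was KRT5, so the sum hides the other markers. From control to SPARC 5, mean KRT14 went from 331 to 465 CPM, EPCAM from 86.6 to 69.2 and ALDH3A1 from 6.89 to 3.82. PAX6 was at 7.66 and 7.65 CPM. The corneal keratin KRT12 was nearly absent, with 0 to 4 counts in a library, and KRT3 had 43 to 87. Sums over marker lists of stroma, immune cells, endothelium, melanocytes and conjunctiva stayed at or under 8.02 CPM, and KERA and TFF1 were at 0. Their part in the results was not tested. The stromal list, mostly COL1A1, summed to 4.89 to 6.41 CPM in control and 5.58 to 8.02 CPM at SPARC 5.

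DSP, DSG2 and DSC2 were the 3 members that rose at the highest dose, as described further on. The stretches of DNA just upstream of them are shown here because each holds 1 E-box of the form CAGGTG. Zinc-finger repressors of epithelial genes such as SNAI2 bind this sequence. It was searched on both strands, and reads CACCTG where it lies on the other strand. Capitals mark the E-box, and all 3 runs are 5′ to 3′ on the gene's strand. The sequences are from RefSeq promoters on GRCh38.p14, and end before the first transcribed base of the gene in GENCODE 29. They cover chr6:7541421-7541574 (plus strand, 154 bases), chr18:31497927-31498042 (plus strand, 116 bases) and chr18:31102523-31102671 (minus strand, 149 bases).
DSP: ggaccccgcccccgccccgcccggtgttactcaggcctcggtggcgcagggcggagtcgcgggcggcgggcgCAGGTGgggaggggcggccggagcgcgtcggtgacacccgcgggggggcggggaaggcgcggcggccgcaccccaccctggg
DSG2: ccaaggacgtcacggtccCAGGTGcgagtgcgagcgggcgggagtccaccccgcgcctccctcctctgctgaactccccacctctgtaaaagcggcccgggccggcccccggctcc
DSC2: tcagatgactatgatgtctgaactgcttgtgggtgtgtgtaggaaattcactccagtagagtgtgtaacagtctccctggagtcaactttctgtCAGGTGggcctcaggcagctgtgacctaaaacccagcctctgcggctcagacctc
The E-box starts 82 bases before that gene start in DSP, 98 in DSG2 and 55 in DSC2. In the full 250 bases before the RefSeq start there were 2 such boxes for DSP, 2 for DSG2 and 1 for DSC2. Entries existed for 8 of the 10 members, with a second start for JUP and for DSC2. The second start of JUP also had 2. The first start of JUP, the second start of DSC2 and the entries of PKP1, PERP, DSC3 and DSG3 had none. Of 35116 RefSeq promoters of the same length, 17.5% held at least 1. The GC box and the SMAD, AP-1, TEAD, grainyhead and TATA elements were searched in the same way. Of these, only the GC box also occurred for all of DSP, DSG2 and DSC2, and 42.6% of RefSeq promoters held it. The E-box was chosen for printing with the changes of the members known. A match describes these letters and does not show binding.

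At SPARC 5, 3 of the 10 desmosomal genes rose (DSP by 13.8%, DSC2 by 12.6% and DSG2 by 6.02%), PKP2 fell by 7.53% and 6 did not pass the test. Of all genes tested, 11.6% were called in this comparison, 7.04% upward and 4.58% downward. The members' median log2 fold change was 0.042, against −0.007 over all genes tested. The ranges of the 5 SPARC 5 and the 5 control libraries did not overlap for the 4 members called, 3 above and 1 below, and for 7.68% of all genes tested (4.80% above, 2.88% below). Here and below, a gene rose or fell when its p-value from the quasi-likelihood test of edgeR, adjusted by Benjamini-Hochberg over all genes tested, was under 0.05. Levels are CPM, scaled between libraries with TMM (trimmed mean of M values) factors, and given as mean ± SD over 5 libraries. Log2 fold changes of this fit are followed by ± their standard error (SE), and those under another processing or without a library stand alone. A lower level can come from fewer cells with the transcript or from less transcript per cell, which cannot be told apart in bulk RNA.

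**Figure D1:**
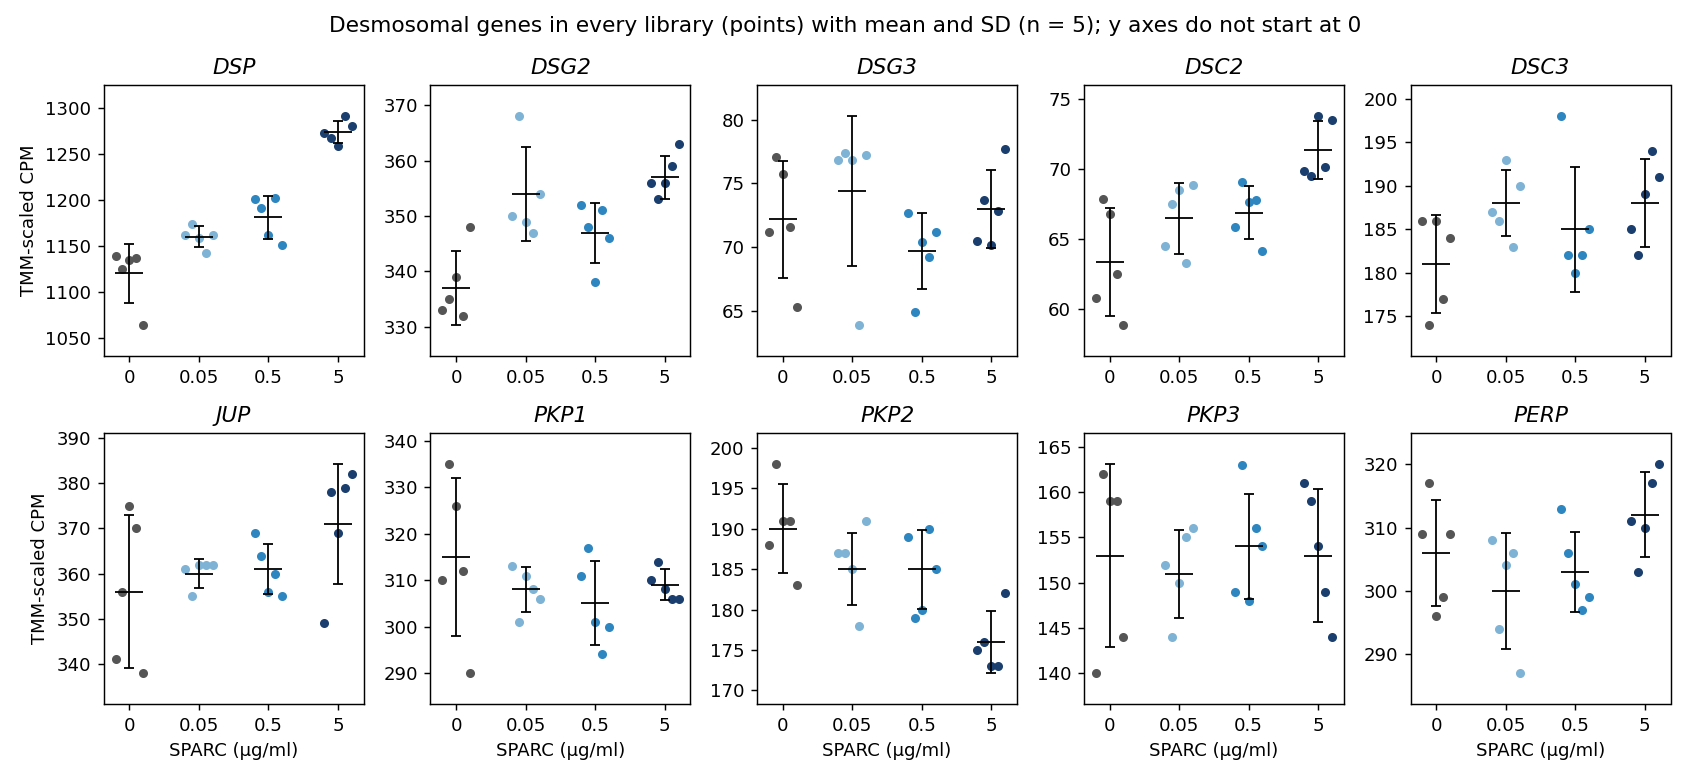
TMM-scaled CPM (y axis, not starting at 0) of the 10 desmosomal genes against SPARC dose in µg/ml (x axis). Points are the 5 libraries of a group in replicate order, and black marks are the mean and SD. DSP at SPARC 5 (1259 to 1291 CPM) lies above every library of the other groups, and PKP2 at SPARC 5 (173 to 182 CPM) lies below every control.

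DSP encodes desmoplakin, without which keratin filaments do not attach to the plaque. It lies on chromosome 6 (7541575 to 7586717, plus strand, GRCh38, ENSG00000096696). The 5 control libraries had 1139, 1125, 1135, 1137 and 1064 CPM. At SPARC 0.05 the values were 1162, 1174, 1159, 1142 and 1162 CPM, and at SPARC 0.5 they were 1201, 1191, 1162, 1202 and 1151 CPM. At SPARC 5 they were 1273, 1267, 1259, 1291 and 1280 CPM. Each dosed group lay wholly above the controls, and SPARC 5 lay wholly above the lower doses, while SPARC 0.05 and SPARC 0.5 overlapped. Of all genes tested, 0.950% lay wholly above the controls at SPARC 0.05 and 1.71% at SPARC 0.5.

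Mean DSP went from 1120 ± 31.8 CPM in control to 1160 ± 11.6, 1181 ± 23.4 and 1274 ± 12.3 CPM with rising dose. At SPARC 5 the log2 fold change was 0.19 ± 0.02 (95% interval 0.15 to 0.23, adjusted p = 1.19e-12 by edgeR). Without SPARC 5 replicates 2 and 5 it was 0.19 (adjusted p = 3.38e-10). Control replicate 5 was the lowest of the 20 libraries, and without it the value was 0.17 (adjusted p = 1.87e-10). At SPARC 5 DSP was also higher than at SPARC 0.5, by 0.11 ± 0.02 (adjusted p = 3.68e-05; 0.11 and 0.000663 without replicates 2 and 5), and was the only member called between these doses. In that comparison 4.80% of all genes were called, 3.31% upward. DSP, DSG2 and DSC2 lay wholly above SPARC 0.5, as did 3.19% of all genes.

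Of the 4 cadherins, 2 were called. DSG2 and DSC2, the widely expressed desmoglein and desmocollin that are also found in simple epithelia and heart, both rose at SPARC 5. DSG3 and DSC3, which mark the lower layers of stratified epithelia, did not pass the test at any dose. The 4 genes lie in one cluster on chromosome 18, DSC3 and DSC2 on the minus strand and DSG3 and DSG2 on the plus strand. Whether the changes of the former pair differ from those of the latter was tested only as ratios within libraries, given further on.

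DSC2 (ENSG00000134755, chromosome 18, 31058840 to 31102522) was the least abundant member by count. Its controls had 60.8, 67.9, 66.8, 62.5 and 58.9 CPM. At SPARC 0.05 the values were 64.5, 67.5, 68.5, 63.3 and 68.9 CPM, and at SPARC 0.5 65.9, 69.1, 67.7, 67.8 and 64.2 CPM. At SPARC 5 they were 69.9, 69.5, 73.8, 70.2 and 73.5 CPM. SPARC 5 lay wholly above the controls and above SPARC 0.5, while the lower doses overlapped the controls. DSC2 rose by 0.17 ± 0.04 at SPARC 5 (adjusted p = 0.000609, edgeR; 0.17 and adjusted p = 0.00478 without replicates 2 and 5), from 63.4 ± 3.86 to 71.4 ± 2.09 CPM. DSC2 transcripts have the lowest GC content of the members (38.9%). With each library corrected for the GC content and length of genes, the change was 0.08 and did not pass (adjusted p = 0.219).

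DSG2 (ENSG00000046604, chromosome 18, 31498043 to 31549008) had 333, 335, 339, 332 and 348 CPM in the controls. At SPARC 0.05 it had 350, 368, 349, 347 and 354 CPM, and at SPARC 0.5 352, 348, 338, 351 and 346 CPM. At SPARC 5 it had 356, 353, 356, 359 and 363 CPM, all above the highest control. The change at SPARC 5 was 0.08 ± 0.02 (337 ± 6.66 to 357 ± 3.86 CPM, adjusted p = 0.00762 by edgeR), and 0.08 without replicates 2 and 5 (adjusted p = 0.0395). This call was the least stable of the 4. It was lost when libraries were scaled by their totals alone (0.04, adjusted p = 0.338), with no filter on low counts (0.08, adjusted p = 0.0721) and with the GC and length correction (0.03, adjusted p = 0.426).

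DSG3, the desmoglein of the basal and lower layers, had 65.3 to 77.1 CPM in control and 70.2 to 77.7 CPM at SPARC 5. Its change at SPARC 5 was 0.02 ± 0.04, with an interval of −0.07 to 0.10 (adjusted p = 0.887 by edgeR). Without replicates 2 and 5 it was −0.02 (adjusted p = 0.873). DSC3, the desmocollin of the same layers, had 174 to 186 CPM in control and 182 to 194 CPM at SPARC 5. All 5 SPARC 5 libraries exceeded the control mean, but the ranges overlapped. The change was 0.05 ± 0.03, with an interval of −0.00 to 0.11 (adjusted p = 0.230 by edgeR), −0.02 with the GC and length correction and 0.06 without replicates 2 and 5 (adjusted p = 0.253).

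The cadherins of the upper layers were nearly absent. DSG1, the main desmoglein of differentiated layers, had 41 counts summed over all 20 libraries, DSC1, its partner desmocollin, had 55, and DSG4 had 4. These genes had too few counts to test.

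Among the armadillo proteins, the plakophilin PKP2 fell and no other was called. PKP2, the plakophilin of heart, simple epithelia and basal cells, gathers desmoplakin into new junctions. It lies on chromosome 12 (32790745 to 32896840, minus strand, ENSG00000057294). Its controls had 188, 198, 191, 191 and 183 CPM. At SPARC 0.05 it had 187, 187, 185, 178 and 191 CPM, and at SPARC 0.5 189, 179, 180, 190 and 185 CPM. At SPARC 5 it had 175, 176, 173, 173 and 182 CPM, all below the lowest control, while the lower doses overlapped the controls.

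PKP2 fell by 0.11 ± 0.03 on the log2 scale at SPARC 5 (interval −0.17 to −0.06, 190 ± 5.50 to 176 ± 3.86 CPM, adjusted p = 0.00140 by edgeR). Without replicates 2 and 5 the value was −0.13 (adjusted p = 0.00149), and with the GC and length correction −0.13 (adjusted p = 0.000121). Its fall from SPARC 0.5 to SPARC 5, −0.07 ± 0.03, did not pass (adjusted p = 0.127 by edgeR; −0.09 and 0.0973 without replicates 2 and 5).

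The other plakophilins did not pass the test. PKP1, which strengthens desmosomes in the upper layers of stratified epithelia, went from 315 ± 17.1 to 309 ± 3.34 CPM (−0.03 ± 0.03, adjusted p = 0.588 by edgeR). PKP3, found in nearly all epithelial desmosomes, was at 153 ± 10.1 CPM in control and 153 ± 7.31 CPM at SPARC 5 (0.00 ± 0.03, interval −0.06 to 0.07, adjusted p = 0.967 by edgeR). Without replicates 2 and 5 the values were −0.03 (adjusted p = 0.596) for PKP1 and 0.01 (adjusted p = 0.890) for PKP3. Scaled by library totals alone, PKP1 was called lower (−0.08, adjusted p = 0.0337).

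JUP encodes plakoglobin, which serves in desmosomes and in adherens junctions. Its controls had 341, 356, 375, 370 and 338 CPM, and its SPARC 5 libraries had 349, 378, 369, 379 and 382 CPM. The groups overlapped, with SPARC 5 replicate 1 the lowest of its group. The change was 0.06 ± 0.03 (adjusted p = 0.119 by edgeR). It passed without SPARC 5 replicate 1 (0.08, adjusted p = 0.0372) and without control replicate 3 (0.08, adjusted p = 0.0325), and without replicates 2 and 5 it was 0.04 (adjusted p = 0.532). With the GC and length correction JUP, whose transcripts are 61.5% GC, was 0.10 higher (adjusted p = 0.000861).

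PERP, a membrane protein that desmosomes of stratified epithelia need and a target of p53 and p63, went from 306 ± 8.38 to 312 ± 6.73 CPM at SPARC 5. This change of 0.03 ± 0.02 did not pass (interval −0.02 to 0.08, adjusted p = 0.550 by edgeR; 0.03 and 0.618 without replicates 2 and 5).

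**Figure D2:**
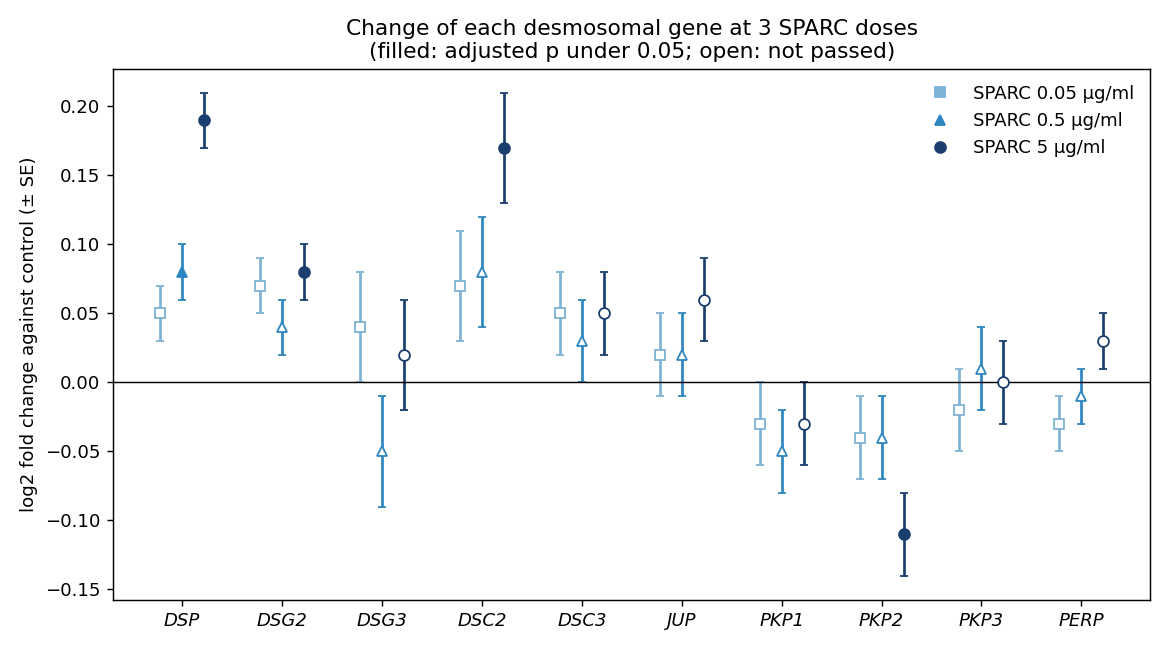
Log2 fold change against control (y axis, ± SE) of the 10 genes (x axis) at the 3 doses, from edgeR with 5 libraries a group. Filled symbols passed an adjusted p of 0.05: DSP, DSG2, DSC2 and PKP2 at SPARC 5 and DSP at SPARC 0.5. The 3 sets of values share the same controls.

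At SPARC 0.5, DSP rose and the other 9 members did not pass, where 2.25% of all genes were called, 1.36% upward. The change of DSP was 0.08 ± 0.02 (5.47%, interval 0.04 to 0.12, adjusted p = 0.0182 by edgeR). The call depended on single libraries: the adjusted p was 0.105 without control replicate 5, 0.0575 without SPARC 0.5 replicate 1 and 0.0827 without SPARC 0.5 replicate 4. It was also lost with library totals alone (0.05, adjusted p = 0.145), with no filter on low counts (0.08, adjusted p = 0.0737) and with the GC and length correction (0.06, adjusted p = 0.0862), under which JUP was called instead (0.08, adjusted p = 0.0429). DSC2 was 0.08 ± 0.04 (adjusted p = 0.345) and PKP2 −0.04 ± 0.03 (adjusted p = 0.546). The members' median was 0.014, against −0.004 over all genes.

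At SPARC 0.05, no member was called by edgeR, and 0.266% of all genes were. Of the members, 2 had an unadjusted p under 0.05 in edgeR, DSG2 with 0.07 ± 0.02 (adjusted p = 0.242) and DSP with 0.05 ± 0.02 (adjusted p = 0.368). DESeq2 called 1 member, DSG2 (adjusted p = 0.0306). The members' median was 0.031, against −0.003 over all genes. The intervals of the other 8 members all reached 0 or crossed it, and the widest upper bounds were those of DSC2 (0.15) and DSG3 (0.13).

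Over all 4 groups at once, DSP (adjusted p = 7.76e-12, edgeR), DSC2 (0.00639), PKP2 (0.0112) and DSG2 (0.0328) changed, where 11.0% of all genes were called. The call of DSG2 was lost without any 1 of 8 libraries (control replicates 1, 2 and 4, SPARC 0.05 replicates 2 and 5, SPARC 5 replicates 1, 4 and 5; adjusted p 0.0503 to 0.103), without SPARC 5 replicates 2 and 5 together (0.0793), with no filter on low counts (0.184) and with library totals alone (0.230). With library totals alone DSC2 was lost too (0.110). With the GC and length correction DSG2 (0.636) and DSC2 (0.469) were lost and JUP was called (0.00447). PKP2 was lost without SPARC 5 replicate 3 (0.0580), and DSG3 was called without SPARC 0.05 replicate 4 (0.0461).

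A straight line over the 4 ordered doses gave DSP a slope of 0.058 ± 0.007 log2 units per dose step (adjusted p = 9.02e-10) and DSC2 one of 0.052 ± 0.013 (adjusted p = 0.00183). The slope of PKP2 was −0.034 ± 0.009 (adjusted p = 0.00512). The mean of DSG2 was higher at SPARC 0.05 (354 ± 8.46 CPM) than at SPARC 0.5 (347 ± 5.43 CPM), with ranges that overlapped. Its slope of 0.022 ± 0.008 did not pass (adjusted p = 0.0581), but was called by DESeq2 (adjusted p = 0.0254), without control replicate 5 (0.0444) and without SPARC 0.05 replicate 2 (0.0362). With the GC and length correction the slope of DSC2 was 0.024 and did not pass (adjusted p = 0.246), while JUP passed with 0.032 (adjusted p = 0.00229). With library totals alone PKP1 passed with −0.026 (adjusted p = 0.0344). For the trend 11.1% of all genes were called, 6.81% upward and 4.27% downward.

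The authors' deposited tables of the 3 doses against control named the same members. In the authors' deposited table for SPARC 5, DSP, DSG2 and DSC2 were higher and PKP2 lower, with 16.3% of its 16121 genes called. In the authors' deposited table for SPARC 0.5 only DSP was called, with 3.44% of genes called. In the authors' deposited table for SPARC 0.05 no member was called, with 0.682% of genes called.

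**Figure D3:**
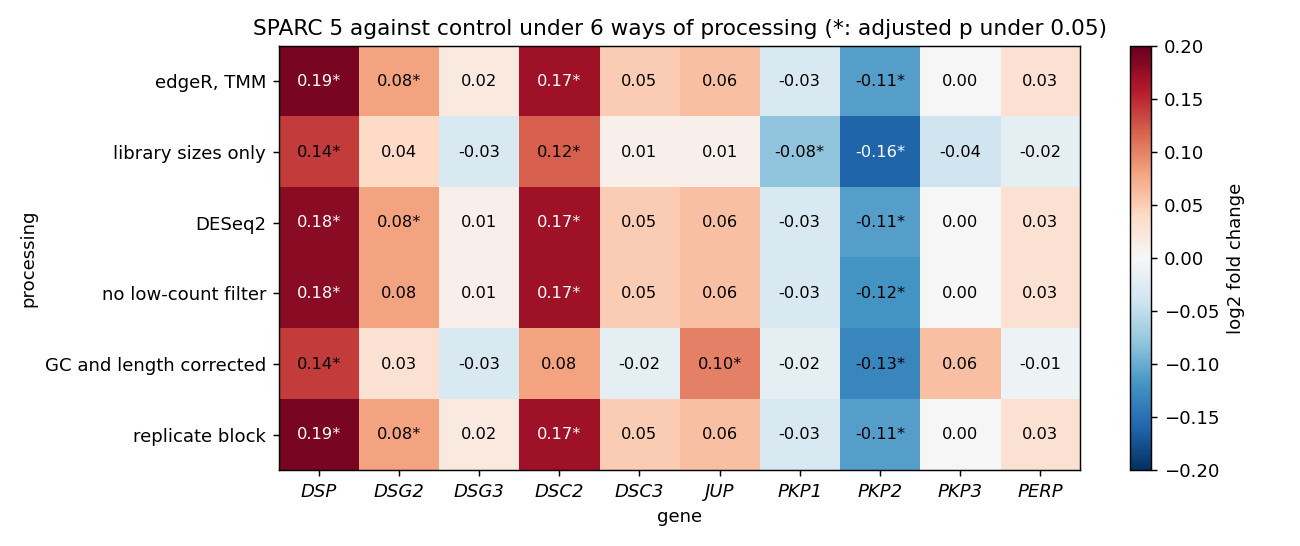
Log2 fold change at SPARC 5 against control for each gene (columns) under 6 ways of processing the same counts (rows), in colour and as a printed value; an asterisk marks an adjusted p under 0.05. DSP and PKP2 carry it in each of the 6 rows, while DSC2 loses it in 1 row and DSG2 in 3.

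Over 31 alternatives, DSP at SPARC 5 was between 0.14 and 0.19 and PKP2 between −0.16 and −0.10, and both were called in each of them. DSC2 was called in 30 of 31 and DSG2 in 28 of 31. Of the 31, 20 left out a single library each, including libraries of the lower doses, which this comparison does not contrast. The calls of DSC2 and DSG2 were lost only under other processing, not by leaving out a library. Scaling by library totals alone lowered the median change of all genes from −0.007 to −0.054 and turned the split of calls from 1615 higher and 1050 lower to 999 higher and 2191 lower.

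Relative levels can be read only per length of transcript. In control the order by CPM per kilobase of exons was DSP (111 ± 3.15), JUP (72.1 ± 3.42), PERP (71.3 ± 1.95), DSG2 (54.5 ± 1.08), PKP1 (50.7 ± 2.76), PKP3 (40.4 ± 2.67), PKP2 (27.0 ± 0.780), DSC3 (25.7 ± 0.801), DSG3 (13.1 ± 0.831) and DSC2 (5.07 ± 0.309). The ranges of JUP and PERP overlapped, as did those of DSG2 and PKP1 and of PKP2 and DSC3. Other neighbours did not overlap. Per length, DSG2 was the most abundant of the desmogleins and DSC3 the more abundant of the desmocollins tested. With the longest transcript as the length, JUP came to 102 and PKP2 to 44.2 CPM per kilobase, so the levels of these genes depend on the length taken.

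**Figure D4:**
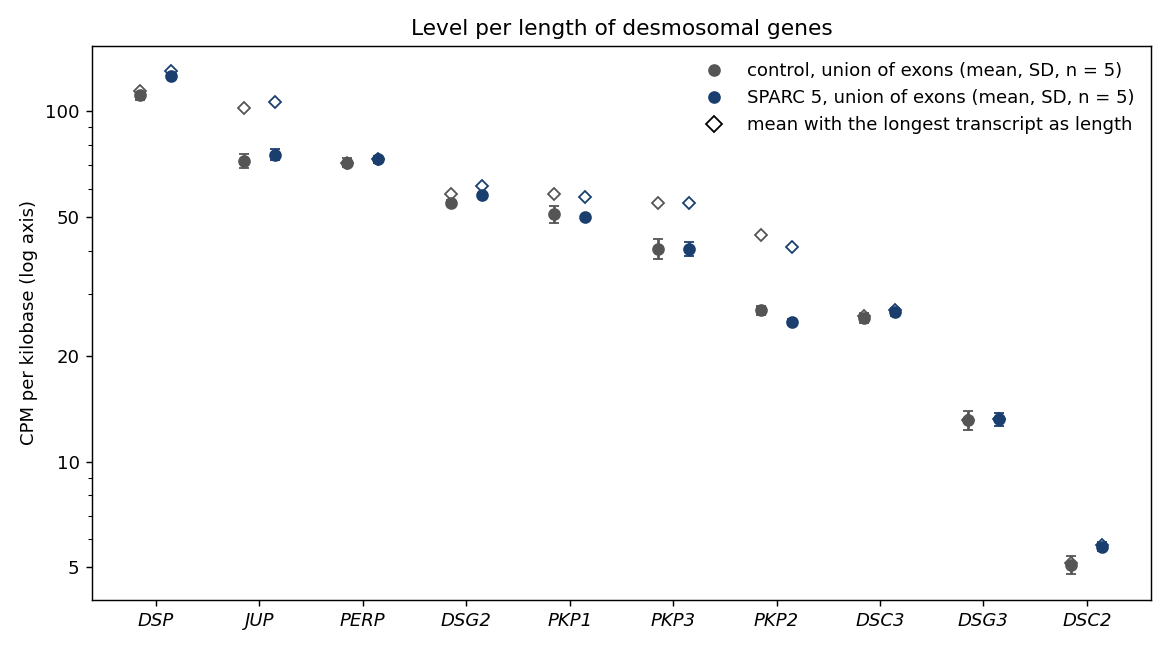
CPM per kilobase (y axis, log scale) of the 10 genes in control (grey) and at SPARC 5 (blue), ordered by control level. Circles are the mean and SD of 5 libraries over the union of exons, and open diamonds use the longest transcript. The order in both groups runs from DSP down to DSC2. By the union of exons PKP2 (25.0) is under DSC3 (26.7) at SPARC 5, and by the longest transcript it is above.

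By the union of exons, the order at SPARC 5 was the same except for DSC3 and PKP2. DSC3 (26.7 ± 0.720) stood before PKP2 (25.0 ± 0.548), with ranges that overlapped. The same pair had also changed places at SPARC 0.05 (26.6 against 26.3) and SPARC 0.5 (26.3 against 26.2). With the longest transcript as the length, PKP2 stood before DSC3 in all 4 groups, and their ranges did not overlap. Their levels were then 44.2 against 26.0 CPM per kilobase in control and 40.9 against 27.0 at SPARC 5. Together the 10 genes summed to 3094 ± 67.7 CPM in control and with rising dose to 3146 ± 22.2, 3158 ± 48.9 and 3285 ± 27.8 CPM. DSP is the largest part of each sum, and its own mean went from 1120 CPM in control to 1274 CPM at SPARC 5.

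Ratios between members within a library do not depend on how libraries are scaled. They were not corrected for the GC content and length of genes, so a ratio of genes that differ in these can still move. DSP transcripts are 47.9% GC and JUP transcripts 61.5%. With that correction, the log2 fold changes at SPARC 5 were 0.14 for DSP and 0.10 for JUP. The ratios were of DSG3 to DSG2, DSC3 to DSC2, DSC3 to DSG3, PKP1 to PKP3, PKP2 to PKP3 and DSP to JUP, each at 3 doses against control, 18 tests in all. None passed after adjustment by exact permutation test, 2-sided, and 1 of the 18 had an unadjusted p under 0.05, that of DSP to JUP at SPARC 5. This log2 ratio went from 1.65 ± 0.06 to 1.78 ± 0.05 (n = 5 each), and 5 against 5 libraries did not overlap (exact permutation p = 0.00794, the smallest that the permutations can give; adjusted p = 0.143). PKP2 to PKP3 differed by −0.12 (exact permutation p = 0.0635, adjusted p = 0.381) and DSC3 to DSC2 by −0.12 (exact permutation p = 0.0873, adjusted p = 0.393). Without SPARC 5 replicates 2 and 5, 0 ratios passed. DSP to JUP then differed by 0.15 and PKP2 to PKP3 by −0.15 (each exact permutation p = 0.0179, the smallest that 3 against 5 libraries can give; adjusted p = 0.161). With or without SPARC 5 replicates 2 and 5, a single ratio at the smallest p could not pass the adjustment over 18 tests. That none passed therefore does not show that the ratios stayed the same. DSC2 passed the test at SPARC 5 and DSC3 did not, but the difference between them was not shown.

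Genes around the desmosome were taken from lists written with earlier results of these data known, and were compared in the same fit. In all 24 of them were called at SPARC 5, and 23 without replicates 2 and 5, where AFDN was no longer called. Of all genes tested, 11.6% were called at SPARC 5, 7.04% upward and 4.58% downward, with a median log2 fold change of −0.007. Of 5 testable other plaque and cornified envelope genes, none rose and 2 fell at SPARC 5: PPL, encoding the plakin periplakin (165 ± 12.8 to 134 ± 3.92 CPM, −0.30 ± 0.04, adjusted p = 2.28e-08 by edgeR), and EVPL, encoding its partner envoplakin (−0.11 ± 0.03, adjusted p = 0.00257). PKP4, a relative of the plakophilins, was 0.06 ± 0.03 (adjusted p = 0.150). The median of this list was −0.110.

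In the adherens junction, the neighbouring junction tied to actin, 4 of 10 genes rose and none fell at SPARC 5 (median 0.061). AFDN, encoding afadin, was 0.08 ± 0.03 (adjusted p = 0.0370 by edgeR), and 0.07 without replicates 2 and 5 (adjusted p = 0.166). CTNNB1, encoding beta-catenin, the close relative of plakoglobin, rose by 0.16 ± 0.02 (adjusted p = 1.60e-08 by edgeR), CTNNA1, alpha-catenin, by 0.11 ± 0.02 (adjusted p = 0.000419) and VCL, vinculin, by 0.08 ± 0.03 (adjusted p = 0.0175). CTNNB1 had also risen at SPARC 0.5 (0.08 ± 0.02, adjusted p = 0.0457).

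The keratins, to which desmoplakin binds, moved both ways. Of 12 testable genes 3 rose and 2 fell at SPARC 5 (median 0.089). KRT7 rose from 622 ± 39.1 to 1102 ± 18.4 CPM (0.82 ± 0.03, adjusted p = 3.35e-26 by edgeR) and had risen at SPARC 0.5 (0.20 ± 0.03, adjusted p = 5.99e-06). KRT6A rose by 0.41 ± 0.05 (adjusted p = 1.50e-05), and KRT18 fell by 0.17 (SE 0.02, adjusted p = 1.72e-07). KRT15 had the largest change of the list, from 114 ± 24.5 to 53.1 ± 7.52 CPM (−1.11 ± 0.14, adjusted p = 2.98e-05 by edgeR). KRT14 rose by 0.49 ± 0.06 (adjusted p = 3.92e-05 by edgeR). KRT5, the main basal keratin, was at 11321 ± 354 CPM in control and 11322 ± 157 CPM at SPARC 5.

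The hemidesmosome, which ties keratin to the basement membrane instead of to the next cell, had 8 of 9 genes higher at SPARC 5 and none lower (median 0.336). ITGB4, the integrin beta subunit of the hemidesmosome, rose by 0.27 ± 0.02 (adjusted p = 1.61e-18 by edgeR), and LAMA3, encoding a laminin chain, by 0.69 ± 0.04 (adjusted p = 1.96e-10). LAMA3 was also called at SPARC 0.5 (0.16 ± 0.04, adjusted p = 0.0409 by edgeR).

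Of 17 testable regulators of desmosomal gene expression and cadherin turnover, 5 rose and none fell at SPARC 5 (median 0.090). They were SNAI2, encoding the repressor Slug that binds E-boxes (103 ± 8.92 to 137 ± 7.63 CPM, 0.41 ± 0.05, adjusted p = 2.64e-06 by edgeR), EGFR (0.10 ± 0.02, adjusted p = 0.000404), ADAM10, a protease that sheds cadherins (0.12 ± 0.03, adjusted p = 0.00319), KLF4 and TP63.

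**Figure D5:**
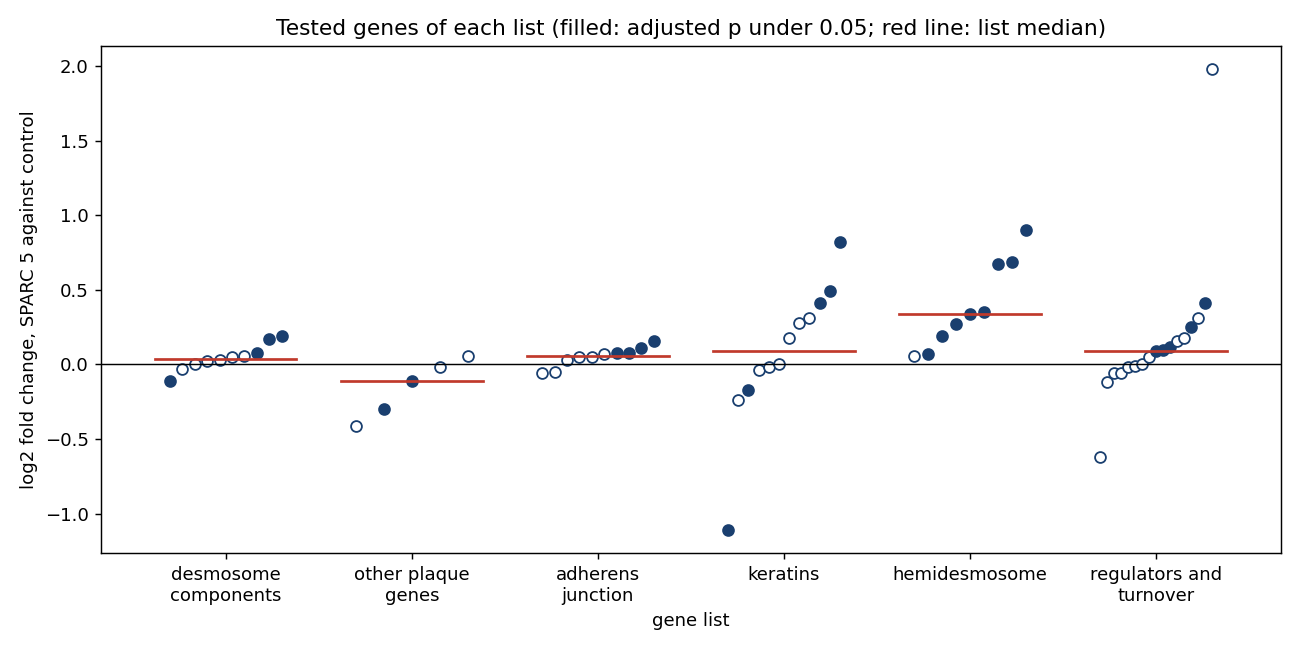
Log2 fold change at SPARC 5 against control (y axis) of every tested gene in the desmosome and the 5 surrounding lists (x axis); filled points passed an adjusted p of 0.05 and red lines are list medians. The 10 desmosomal genes lie between −0.11 and 0.19, while 8 of the 9 hemidesmosome points are filled and above 0 and keratins span −1.11 to 0.82.

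Across the 20 libraries, the genes whose log2 level followed DSP most closely, among 7855 genes whose mean reached 20 CPM, were STON2 (Pearson r = 0.947, Spearman rho = 0.905), AHNAK2 (0.941 and 0.874), PRSS23 (0.936 and 0.886), LTBP2 (0.934 and 0.847) and HELZ (0.931 and 0.947). The libraries share doses, so these values hold the difference between groups and are a description. Among the members, DSC2 had r = 0.803 with DSP (rank 210 of the 7855 genes), DSG2 0.62 (rank 892) and JUP 0.589 (rank 1017). DSC3 had 0.387, PERP 0.346, DSG3 0.177, PKP3 0.092, PKP1 0.002 and PKP2 −0.616.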

How the data were processed

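Total RNA of 20 hTCEpi libraries was depleted of ribosomal RNA, primed with random hexamers and sequenced in pairs, per the labels' protocols. The authors deposited whole read counts per Ensembl gene; STAR 2.7.9a, featureCounts 2.0.3, edgeR, limma and GRCh38 are named in the submitters' processing notes. The sources used here give neither the annotation release nor the strand setting; genes overlapping DSG2, DSC2 and PKP2 held at most 0.277% of those members' counts. The authors also deposited comparison tables with log2 fold changes and p-values, and scores (moderated t, log odds) that were not used here, per the file headers.

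Of 60871 entries, 168 identifiers stood on 368 entries with equal counts and were used once. Genes were filtered with filterByExpr (minimum count 10), scaled with TMM and fitted in edgeR 4.0.16 (R 4.3.3), with all 4 groups in 1 model and robust quasi-likelihood F-tests. DESeq2 1.42.0 was an alternative. The GC and length correction was a loess offset per library (span 0.5), with values for 98% of genes tested. CPM per kilobase and positions used GENCODE 29. Ratios used exact permutation tests.

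The members and gene lists were chosen with earlier results of these data known. All members are named. Of each surrounding list the 3 smallest p at SPARC 5 are named, while AFDN, KRT5, KRT14, KRT15, KLF4 and TP63 were added after their values were seen. One gene that this rule names is not reported here. The genes most like DSP are the 5 with the highest Pearson r. Replicate numbers did not pair libraries. Intervals cover the spread between libraries, whose common coefficient of variation was 6.68%.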

Additional observations from a re-analysis of the deposited data

Results flagged for a closer look

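For each member and group, the highest and the lowest library were set against the other 4 by Dixon's criterion (critical value 0.71 for 5 libraries). Of 40 groups checked, 4 held such a library, where chance gives about 5%. DSP was low in control replicate 5, at 1064 CPM against 1125 to 1139 in the other controls; without this library DSP stayed called at SPARC 5 and was no longer called at SPARC 0.5. DSG3 was low in SPARC 0.05 replicate 4, at 63.9 CPM against 76.8 to 77.4. DSC3 was high in SPARC 0.5 replicate 1, at 198 CPM against 180 to 185. JUP was low in SPARC 0.05 replicate 2, at 355 CPM against 361 to 362. These 4 values come from 4 different libraries, and none is one of the SPARC 5 pair that stood apart.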

How the results depend on the processing

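No result changed sign while called. At SPARC 5 the count of members called was 4 in the reported fit and 4 to 5 when each library was left out. The count was 3 with the GC and length correction (DSP, PKP2 and JUP) and 3 with no low-count filter (DSP, DSC2 and PKP2). With library totals alone it was 4, with PKP1 in place of DSG2. At SPARC 0.5 it went from 1 to 0 with library totals alone, with no low-count filter and at an adjusted p under 0.01, and was 0 to 1 when each library was left out. At SPARC 0.05 DESeq2 called 1 member and edgeR 0, also when each library was left out (0 to 0). Between SPARC 5 and SPARC 0.5, library totals alone and DESeq2 each called 2 members (DSP and PKP2). Over the 4 groups 2 members were called with library totals alone (DSP and PKP2) and 2 at an adjusted p under 0.01 (DSP and DSC2), and 3 to 5 when each library was left out. For the trend 3 to 4 members were called when each library was left out. The genes called at SPARC 0.05 numbered 61, and 16 at an adjusted p under 0.01, 12 with the GC and length correction, 206 with DESeq2 and 22 to 82 when each library was left out. At SPARC 0.5 the 517 became 200 at an adjusted p under 0.01, 802 with DESeq2 and 267 to 608, and at SPARC 5 the 2665 became 1680 at an adjusted p under 0.01. At SPARC 0.5 library totals alone also turned the split of calls from 312 higher and 205 lower to 165 and 412. The cause was not tested. With a replicate block, 4 members were called at SPARC 5, 1 at SPARC 0.5 and 0 at SPARC 0.05, as without it, and 2750, 612 and 87 genes in all. Libraries with the same replicate number had correlated deviations of −0.035 to 0.044, so the numbers are not taken as pairs; with signs flipped within pairs, the smallest p a ratio can have is 0.0625, and 0 ratios passed. Leaving out SPARC 5 replicates 2 and 5 and using the longest transcript as length were chosen after seeing the data.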
